A study of Mus musculus with 8 samples.

Results

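The nitric oxide, guanylyl cyclase and cGMP genes were followed in RNA-seq of mouse aorta. They were the 10 rows of the gene table whose symbol was Nos3, Gucy1a1, Gucy1a2, Gucy1b1, Npr1, Npr2, Npr3, Prkg1, Pde5a or Pde1a, out of 35896 genes in all, and each of the 10 passed the filter on low counts that kept 17182 genes for testing. The table held 8 libraries, 2 in each of 4 groups of male C57BL6 mice (C57B6/J in the study's methods) that were 11 weeks old at the start. CTRL mice were untreated, AngII mice received angiotensin II from an implanted pump at 2.8 mg/kg/d for 2 weeks and were killed at the end of the infusion, and the AngII+2W and AngII+3W mice (the "memory" groups) received the same infusion and were killed 2 and 3 weeks after it stopped. Each library held pooled RNA of 2 mice, from whole aortic tissue and not from sorted cells, so that a spread between libraries is a spread between pools of mice and a lower level can be fewer cells of a type or less RNA per cell, which cannot be told apart. The CTRL mice were age-matched littermates killed alongside each of the 3 treated groups. Which of these ages the 2 CTRL libraries hold was not given in the sources used here.

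In the vessel wall, endothelial nitric oxide synthase, encoded by Nos3, makes nitric oxide in endothelial cells. Nitric oxide diffuses into smooth muscle cells and binds the heme of soluble guanylyl cyclase, a dimer of an alpha subunit (Gucy1a1 or Gucy1a2) and the beta subunit Gucy1b1, which then makes cGMP from GTP. Natriuretic peptides reach the same second messenger through receptors that are themselves guanylyl cyclases (Npr1 and Npr2), cGMP activates the protein kinase encoded by Prkg1, which relaxes smooth muscle, and phosphodiesterases such as Pde5a and Pde1a break cGMP down.

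Library totals were between 18130441 and 21498200 counts, and levels below are in CPM, counts in a library scaled to 1000000 counts after TMM correction. The mitochondrial share was 8.15% to 18.3%, highest in AngII+3W replicate 1. That library stood apart in its skeletal muscle markers, which summed to 2606 CPM against 5.85 to 74.8 CPM in the 7 other libraries, and cardiac muscle markers varied between 86.0 and 6262 CPM over the 8 libraries. Markers of smooth muscle and of endothelium were present in every library, with none of the 9 and none of the 10 at 0. Differences were tested with edgeR's quasi-likelihood test over all 17182 genes, are given as log2 fold changes with their standard error (SE), and were called at a Benjamini-Hochberg false discovery rate (FDR) under 0.05.

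The subunit genes of soluble guanylyl cyclase lie at 2 places of the GRCm38 genome. Gucy1b1 (ENSMUSG00000028005) is on chr3:82032006-82074689 and Gucy1a1 (ENSMUSG00000033910) on chr3:82092427-82145789, both on the reverse strand, 17737 bases apart with 0 annotated genes between them, whereas Gucy1a2 (ENSMUSG00000041624) is on chr9:3532778-3894736 on the forward strand. The sequence before each start is printed because the pair of neighbours on chromosome 3 changed with AngII and the gene on chromosome 9 did not pass the test. The sequences are from RefSeq on GRCm38.p6, 5′ to 3′ on the gene's own strand. Capitals mark GGGCGG and CCAAT on either strand, so that a CCAAT on the reverse strand reads ATTGG.
Gucy1b1, chr3:82074712-82074961, reverse: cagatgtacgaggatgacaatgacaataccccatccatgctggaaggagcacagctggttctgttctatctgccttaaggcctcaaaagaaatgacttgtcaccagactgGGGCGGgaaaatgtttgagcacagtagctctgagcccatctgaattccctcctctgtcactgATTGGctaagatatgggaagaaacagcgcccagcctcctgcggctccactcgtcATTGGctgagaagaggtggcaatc
Gucy1a1, chr3:82145790-82145900, reverse: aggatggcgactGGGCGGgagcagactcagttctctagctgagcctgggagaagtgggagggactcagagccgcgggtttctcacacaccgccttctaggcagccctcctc
Gucy1a2, chr9:3532099-3532348, forward: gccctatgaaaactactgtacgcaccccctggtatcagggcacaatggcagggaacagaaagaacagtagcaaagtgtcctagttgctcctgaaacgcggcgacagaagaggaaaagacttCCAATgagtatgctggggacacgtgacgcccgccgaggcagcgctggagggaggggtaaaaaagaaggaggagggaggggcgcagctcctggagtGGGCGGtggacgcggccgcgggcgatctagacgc
The starts are those of RefSeq and differ from the gene positions given above. The Gucy1a1 sequence was ended after 111 bases, where the annotated gene begins. The other 2 windows end short of the annotated genes. The Gucy1a2 window ends at 3532348 and the gene begins at 3532778, and the Gucy1b1 window ends at 82074712 and the gene begins at 82074689. The Gucy1b1 window held 1 GGGCGG and 2 CCAAT, both CCAAT on the reverse strand at 78 to 74 and 24 to 20 bases before the start, the Gucy1a2 window held 1 of each, and the Gucy1a1 window (the first of 2, over its whole 250 bases) held 1 GGGCGG and 0 CCAAT. None of these 3 windows held the sequence TATAAA, which was also searched on both strands. Over 32851 RefSeq windows of 250 bases, 12.4% held TATAAA, 32.7% held GGGCGG, 33.9% held CCAAT and 10.1% held CCAAT at least 2 times. A CArG box, the motif bound by serum response factor, was present in 1.47% of the windows and in none of the windows of the 9 members that had one.

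The question asked of the AngII group was which genes the infusion changed at its end. Of the 10 genes, 5 were called and each of these was lower in AngII than in CTRL: Gucy1b1, Gucy1a1, Npr3, Prkg1 and Npr1. Over all genes tested the called share was 5.10%, and the share called lower was 2.20%. Prkg1 and Npr1 were near the threshold and were not called with DESeq2 size factors, library totals alone, limma-voom or a replicate block, where the FDR was 0.0509 to 0.0618 for Prkg1 and 0.0550 to 0.0966 for Npr1, and Prkg1 was also not called with the 2 groups alone (FDR = 0.0579). For 7 of the 10 genes both AngII libraries were below both CTRL libraries, against 24.9% of all genes tested, and the median log2 fold change was -0.82 over the 10 genes and -0.01 over all genes. Gucy1b1 was also among the genes that the study had picked from these same libraries, so its direction is not independent of that choice.

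**Figure D1:**
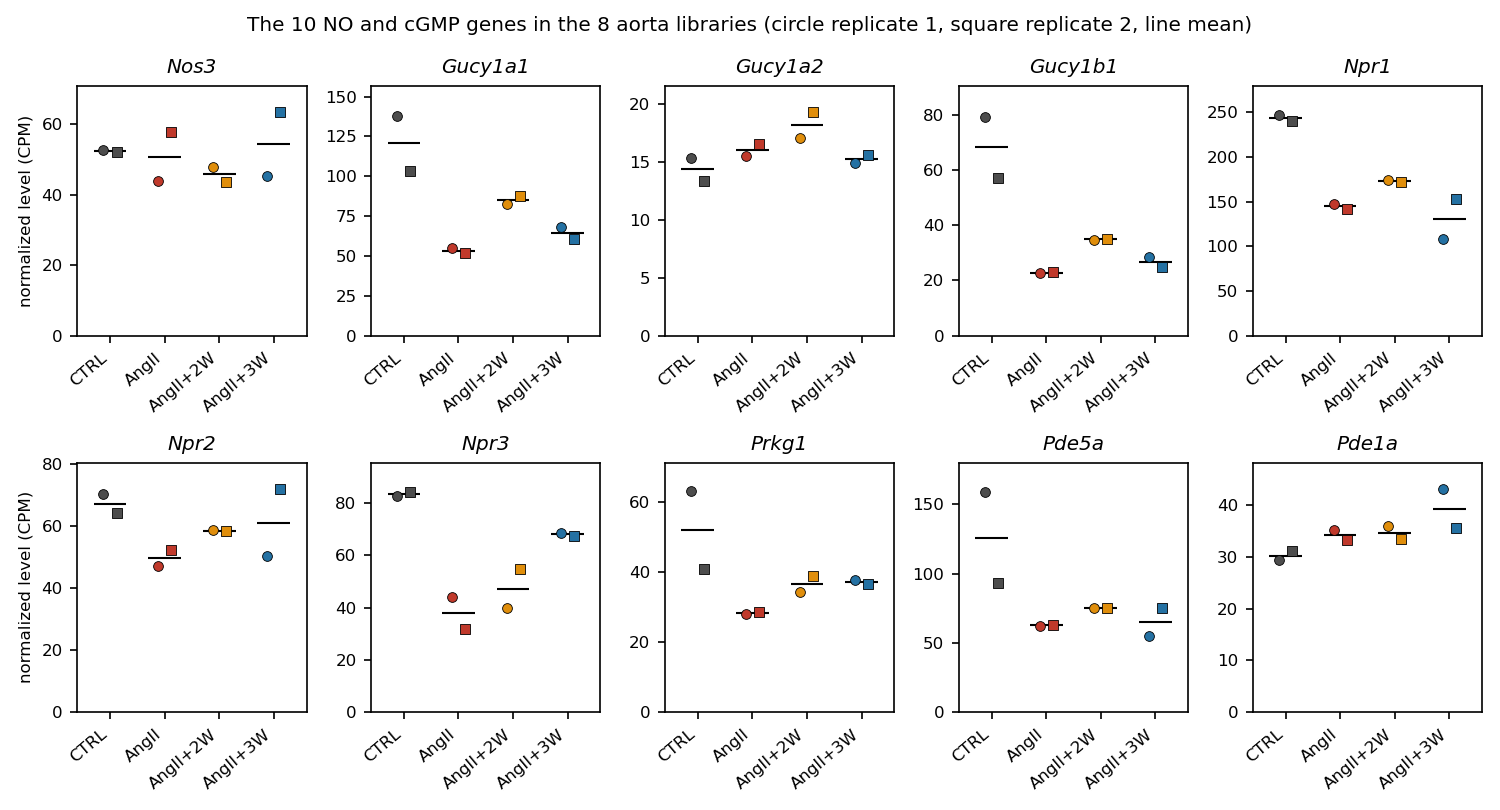
Normalized level in CPM (vertical axis, from 0, scaled to each gene) of the 10 genes in the 8 libraries, by group. Circles are replicate 1, squares replicate 2 and lines the mean of the 2 libraries. Gucy1b1 and Gucy1a1 were below both CTRL libraries in all 6 libraries of infused mice, whereas Nos3 lay between 43.6 and 63.3 CPM and was below both CTRL libraries in the 2 AngII+2W libraries but not in both libraries of AngII or AngII+3W.

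Nos3 was not called in any comparison. Its level was 52.7 and 51.9 CPM in CTRL, 43.8 and 57.7 CPM under AngII, 47.8 and 43.6 CPM at AngII+2W and 45.4 and 63.3 CPM at AngII+3W. The AngII and AngII+3W libraries lay on both sides of the CTRL libraries, and both AngII+2W libraries lay below them. Relative to CTRL the log2 fold change was -0.04 in AngII (SE 0.190, FDR = 0.932), with a 95% interval of -0.48 to 0.40, and -0.19 in AngII+2W (FDR = 0.784) and 0.06 in AngII+3W (FDR = 0.934). The end of Nos3 on chr5:24364810-24384474 overlaps Atg9b on the opposite strand over 294 bases. Atg9b held 481 counts over the 8 libraries together, against 812 to 1217 counts for Nos3 in each library.

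Of the soluble guanylyl cyclase subunits, the beta subunit had the largest change among the 10 genes. Gucy1b1 stood at 79.3 and 57.1 CPM in CTRL, 22.6 and 22.9 CPM under AngII, 34.8 and 35.1 CPM at AngII+2W and 28.4 and 24.9 CPM at AngII+3W. All 6 libraries of infused mice were below both CTRL libraries, and the 2 CTRL libraries differed more from each other (SD 15.7 CPM) than the 2 libraries of any other group (SD 0.187 to 2.48 CPM). In AngII the mean was 66.6% lower than in CTRL, a log2 fold change of -1.58 (SE 0.170, FDR = 0.00753).

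Gucy1a1, the alpha subunit of the main vascular form of the enzyme, followed Gucy1b1. Its level was 138 and 103 CPM in CTRL, 54.8 and 52.1 CPM under AngII, 82.4 and 87.4 CPM at AngII+2W and 68.5 and 60.5 CPM at AngII+3W. No library of infused mice reached the lower CTRL library. The log2 fold change in AngII was -1.17 (SE 0.161, FDR = 0.0131), or 55.7% lower. Over the 8 libraries the log2 CPM of Gucy1a1 and Gucy1b1 had a Pearson r of 0.98, a description of libraries that share groups and normalization.

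Gucy1a2, the other alpha subunit, was lowly expressed and did not pass the test in any comparison. Its level was 15.3 and 13.4 CPM in CTRL, 15.6 and 16.6 CPM under AngII, 17.1 and 19.3 CPM at AngII+2W and 14.9 and 15.6 CPM at AngII+3W. The AngII and AngII+2W libraries were above both CTRL libraries. The log2 fold change was 0.16 in AngII (SE 0.144, FDR = 0.602, 95% interval -0.17 to 0.49) and 0.34 in AngII+2W (FDR = 0.454).

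The proportions of the subunit transcripts stood apart between CTRL and the infused groups. Per kilobase of annotated exon, Gucy1a1 was present at 0.982 and 1.02 times the level of Gucy1b1 in CTRL, 1.37 and 1.28 times under AngII, 1.34 and 1.40 times at AngII+2W and 1.36 and 1.37 times at AngII+3W. Gucy1a2 was at 0.114 and 0.139 times the level of Gucy1b1 in CTRL, 0.406 and 0.428 times under AngII, 0.291 and 0.325 times at AngII+2W and 0.311 and 0.370 times at AngII+3W. For both ratios the CTRL libraries were below all 6 others. These ratios are given as a description, with no test.

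**Figure D2:**
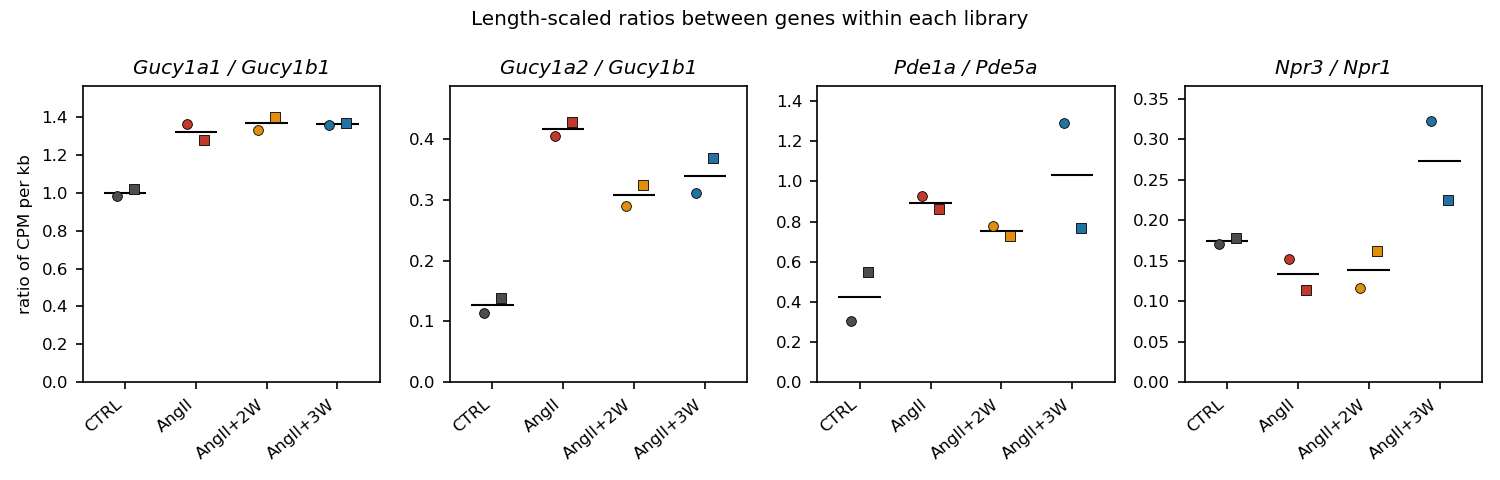
Ratios of CPM per kilobase of exon between pairs of the genes (vertical axis, from 0) within each library, by group, with circles for replicate 1, squares for replicate 2 and lines for the mean of the 2. The Gucy1a1 to Gucy1b1 ratio was 0.982 and 1.02 in the CTRL libraries and 1.28 to 1.40 in the others. Npr3 to Npr1 was 0.322 and 0.225 in AngII+3W and at most 0.178 in the other 6 libraries.

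Of the natriuretic peptide receptors, Npr1 and Npr3 were called lower in AngII. Npr1 (chr3:90450591-90465866, reverse strand) is the cyclase receptor for atrial and brain natriuretic peptide and was the most abundant of the 10 genes per kilobase in every group, at 51.0 ± 0.967 CPM per kilobase in CTRL and 30.3 ± 0.746 in AngII (SD, n = 2 libraries). Its level was 247 and 241 CPM in CTRL, 147 and 142 CPM under AngII, 175 and 173 CPM at AngII+2W and 109 and 153 CPM at AngII+3W. All libraries of infused mice were below CTRL, with the 2 AngII+3W libraries farthest apart. The log2 fold change in AngII was -0.75 (SE 0.170, FDR = 0.0496), just inside the threshold.

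Npr3 (chr15:11839896-11907287, reverse strand) removes natriuretic peptides from the circulation and has no cyclase of its own. It stood at 83.0 and 84.3 CPM in CTRL, 44.1 and 31.9 CPM under AngII, 39.9 and 54.7 CPM at AngII+2W and 68.6 and 67.6 CPM at AngII+3W. The AngII and AngII+2W libraries overlapped each other and lay below those of AngII+3W, which in turn lay below CTRL. The log2 fold change was -1.14 in AngII (SE 0.196, FDR = 0.0228), -0.82 in AngII+2W (SE 0.194, FDR = 0.258) and -0.30 in AngII+3W (SE 0.193, FDR = 0.575). Npr2 (chr4:43631935-43651244, forward strand), the cyclase receptor for C-type natriuretic peptide, lay between 47.0 and 71.9 CPM over the 8 libraries and was not called, with a log2 fold change of -0.44 in AngII (SE 0.173, FDR = 0.210, 95% interval -0.84 to -0.04).

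Downstream of cGMP, the kinase gene Prkg1 (chr19:30564489-31765033, reverse strand) had 63.0 and 40.9 CPM in CTRL, 28.02 and 28.5 CPM under AngII, 34.2 and 39.0 CPM at AngII+2W and 37.6 and 36.5 CPM at AngII+3W. The lower CTRL library was close to the higher AngII+2W library, and no library of infused mice reached it. Its log2 fold change in AngII was -0.88 (SE 0.197, FDR = 0.0472). Cstf2t lies within Prkg1 on the opposite strand and held 4516 counts over the 8 libraries together, and whether the counting used strand was not given in the sources used here.

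The phosphodiesterase genes went different ways and neither was called. Pde5a (chr3:122728947-122859374, forward strand), which is specific for cGMP, had 158 and 92.9 CPM in CTRL, 62.2 and 63.1 CPM under AngII, 75.3 and 75.3 CPM at AngII+2W and 54.6 and 75.5 CPM at AngII+3W. All 6 libraries of infused mice were below both CTRL libraries, but CTRL itself had an SD of 46.4 CPM. The log2 fold change in AngII was -1.005 (SE 0.254, FDR = 0.0674), just outside the threshold. Without CTRL replicate 1, the library in which it was highest, it was -0.57 (FDR = 0.245) in AngII and -0.52 (FDR = 0.402) in AngII+3W, against -0.95 with all libraries. It was called in AngII without CTRL replicate 2, AngII+3W replicate 1 or AngII+3W replicate 2 (FDR = 0.0384, 0.0366 and 0.0358). Pde1a (chr2:79834453-80129458, reverse strand), which is activated by calcium and calmodulin and acts on cAMP as well as cGMP, had 29.3 and 31.0 CPM in CTRL, 35.3 and 33.2 CPM under AngII, 35.9 and 33.5 CPM at AngII+2W and 43.2 and 35.5 CPM at AngII+3W. Every library of infused mice was above both CTRL libraries, with a log2 fold change of 0.18 in AngII (SE 0.131, FDR = 0.505) and 0.38 in AngII+3W (SE 0.131, FDR = 0.292). Per kilobase, Pde1a was at 0.303 and 0.547 times the level of Pde5a in CTRL and 0.927 and 0.861 times in AngII.

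**Figure D3:**
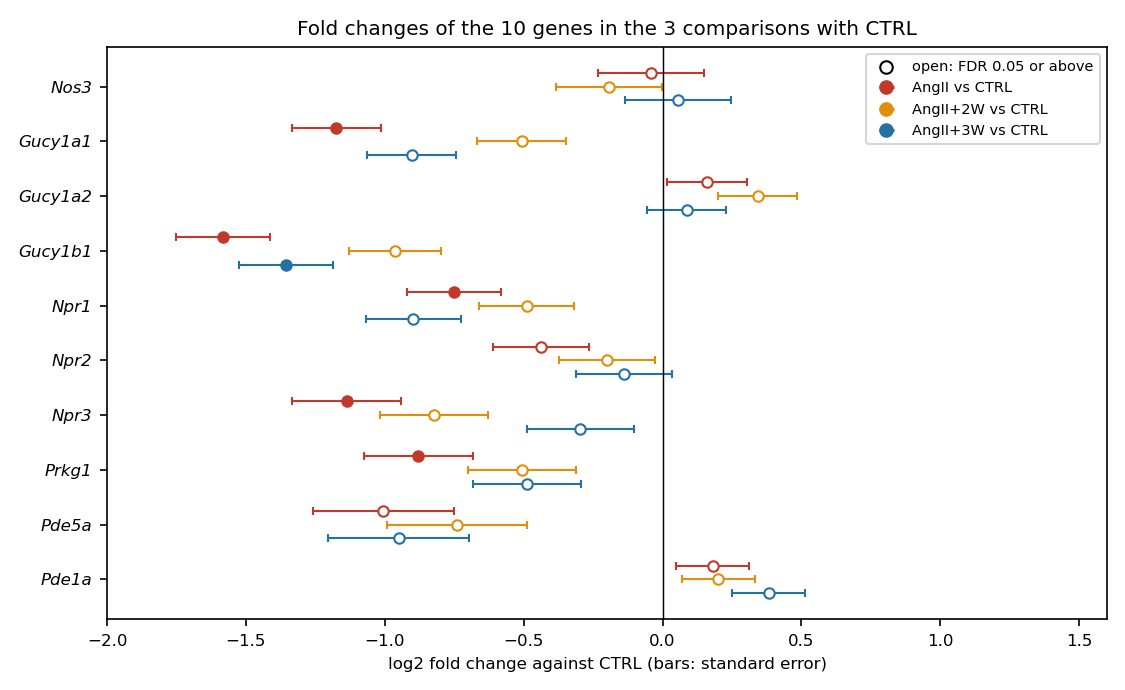
Log2 fold change against CTRL (horizontal axis) of the 10 genes in AngII, AngII+2W and AngII+3W, with bars of 1 standard error from edgeR and filled points where the FDR was under 0.05. Gucy1b1 had the most negative value in each of the 3 comparisons, at -1.58, -0.96 and -1.36, and Gucy1a2 and Pde1a were above 0 in all 3. The 3 comparisons share the same 2 CTRL libraries.

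The memory groups were compared with CTRL to ask which changes were still present after the infusion had stopped. In AngII+2W none of the 10 genes was called by edgeR, as was the case for all genes tested (0%). At an unadjusted p under 0.05 stood 7 of the 10, against 10.7% of all genes. Among these 7, Gucy1a2 was higher than in CTRL (log2 fold change 0.34) and the others were lower. For 8 of the 10 both libraries were below both CTRL libraries, against 22.2%. These values depended on single libraries. With 1 library left out, the log2 fold change ran from -1.18 to -0.70 for Gucy1b1, -0.78 to -0.15 for Prkg1 and -1.07 to -0.29 for Pde5a. The smallest FDR of the 10 was that of Gucy1b1, with a log2 fold change of -0.96 (SE 0.166, FDR = 0.174). This value was shared by 71 genes as the smallest of that comparison, among which Gucy1b1 was at rank 39 by unadjusted p. DESeq2 called Gucy1b1 and Npr3, with 2.17% of all genes called, and limma-voom called none. The median log2 fold change was -0.50 over the 10 genes and 0.00 over all genes.

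In AngII+3W only Gucy1b1 of the 10 genes was called, at a log2 fold change of -1.36 (SE 0.168, FDR = 0.0455), 60.9% below CTRL. The call was lost with library totals alone (FDR = 0.0503), the 2 groups alone (FDR = 0.218) and the replicate block (FDR = 0.0709). Of all genes tested, 0.268% were called lower. At an unadjusted p under 0.05 stood 6 of the 10 against 12.5% of all genes. Among these 6, Pde1a was higher than in CTRL (log2 fold change 0.38) and the others were lower. For 6 of the 10 both libraries were below both CTRL libraries against 18.3%. Gucy1a1 (-0.90, SE 0.160, FDR = 0.0692), Npr1 (-0.90, SE 0.171, FDR = 0.0842) and Pde5a (-0.95, SE 0.254, FDR = 0.179) did not pass. DESeq2 called these 3 beside Gucy1b1, with 3.62% of all genes called. In AngII, DESeq2 called Pde5a in addition to the 5 genes, with 9.24% of all genes called. The median log2 fold change in AngII+3W was -0.39 over the 10 genes and 0.03 over all genes.

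The calls rested on few libraries. When 1 library was left out at a time, the count in AngII was 1 without CTRL replicate 1, 2 without AngII replicate 1, 0 without AngII replicate 2, 3 without either AngII+2W library, 4 without CTRL replicate 2 and 6 without either AngII+3W library. The share of all genes called moved with it, to 0.162%, 1.28%, 0%, 1.56% and 1.58%, 1.96%, and 8.48% and 8.35% in the same order, against 5.10% with all libraries. Gucy1b1 lost its call only without AngII replicate 2 (FDR = 0.0841). Gucy1a1 lost it without CTRL replicate 1, AngII replicate 1 or AngII replicate 2 (FDR = 0.0633, 0.0610 and 0.132), and Npr3 without either CTRL library or AngII replicate 2 (FDR = 0.108, 0.0826 and 0.158). Prkg1 kept it in 3 of the 8 fits, and its log2 fold change was -0.54 without CTRL replicate 1. Npr1 kept it in 2, those without an AngII+3W library. In AngII+3W, Gucy1b1 was called in 2 of the 8, without CTRL replicate 2 and without AngII+3W replicate 2, with an FDR between 0.0907 and 0.185 in the other 6. The FDR was 0.0907 without AngII+3W replicate 1, the library with skeletal muscle markers, and the log2 fold change was then -1.46.

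Comparisons of the memory groups with AngII asked whether levels had returned after the infusion, and none of the 10 genes was called in them by edgeR or by limma-voom. In AngII+2W against AngII, 0.163% of all genes were called, and 2 of the 10 had an unadjusted p under 0.05 against 15.0% of all genes. These were Gucy1a1, with a log2 fold change of 0.67 (SE 0.160, FDR = 0.115), and Gucy1b1, with 0.62 (SE 0.168, FDR = 0.150). Both AngII+2W libraries were above both AngII libraries for 7 of the 10 genes, against 26.8% of all genes. DESeq2 called Gucy1a1, with 3.99% of all genes called, and a fit on the 4 libraries of these groups alone called Gucy1a1 and Gucy1b1, with 5.34% of all genes called.

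In AngII+3W against AngII, 1.61% of all genes were called and Npr3 was the member with the smallest FDR, at a log2 fold change of 0.84 (SE 0.195, FDR = 0.0819). It was the only one of the 10 at an unadjusted p under 0.05, against 17.8% of all genes, and the only one called by DESeq2, with 6.24% of all genes called. Both AngII+3W libraries were above both AngII libraries for 5 of the 10, against 24.8%. Gucy1b1 differed between these groups by 0.23 (SE 0.168, FDR = 0.518, 95% interval -0.16 to 0.62).

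Between AngII+3W and AngII+2W neither a member nor any gene was called by edgeR (0%) or limma-voom. At an unadjusted p under 0.05 stood 4 of the 10, against 8.83% of all genes. Npr3 was higher in AngII+3W by 0.53 (SE 0.194, FDR = 0.482), and Npr1, Gucy1a1 and Gucy1b1 were lower by log2 values of -0.41, -0.40 and -0.39, with FDRs of 0.551, 0.534 and 0.561. DESeq2 called none of the 10, with 1.37% of all genes called. The order AngII, AngII+3W, AngII+2W, CTRL in the means of both Gucy1a1 and Gucy1b1 thus rested on differences between the infused groups that did not pass the test.

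Within CTRL the members' length-scaled levels ran from 51.0 CPM per kilobase for Npr1 to 2.16 for Gucy1a2. Behind Npr1 came Gucy1b1 (17.4 ± 3.999), Gucy1a1 (17.3 ± 3.55), Npr2 (14.4 ± 0.901), Pde5a (12.8 ± 4.72) and Nos3 (12.7 ± 0.125), and each of these overlapped the next in the 2 CTRL libraries. Npr3 (8.91 ± 0.100) was separate from its neighbours, and Pde1a (5.02 ± 0.202) and Prkg1 (4.79 ± 1.44) overlapped. In AngII, Nos3 (12.3 ± 2.37) and Npr2 (10.6 ± 0.772) were the next after Npr1, above Gucy1a1 (7.67 ± 0.277) and Gucy1b1 (5.79 ± 0.0476). Errors are SDs over 2 libraries.

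Markers of smooth muscle were lower in the same libraries as these genes. The 9 smooth muscle markers summed to 10100 and 7889 CPM in CTRL, 1883 and 2315 CPM under AngII, 4199 and 3801 CPM at AngII+2W and 2010 and 3519 CPM at AngII+3W. Of the 9, 7, 0 and 4 were called lower in the 3 comparisons with CTRL, against 2.20%, 0% and 0.268% of all genes. An unadjusted p under 0.05 was reached by 8, 8 and 7, against 20.2%, 10.7% and 12.5% of all genes. Gucy1b1 was 0.785% and 0.723% of the marker sum in CTRL and 1.201% and 0.989% in AngII. It was thus lower by a smaller factor than the summed markers, of which Myh11 and Acta2 were the largest in CTRL. Of the 9 markers, Smtn and Des were lowered less in AngII than Gucy1b1. Smtn had 606 and 612 CPM in CTRL and 217 and 277 CPM in AngII. Des had 108 and 75.8 CPM in CTRL and 53.2 and 31.6 CPM in AngII. The median log2 fold change of the 9 was -2.15 in AngII. In AngII+2W Gucy1b1 was 0.828% and 0.924% of the sum, and in AngII+3W 1.41% and 0.707%, which overlaps CTRL. Prkg1 was 0.624% and 0.519% of the sum in CTRL and 1.49% and 1.23% in AngII. The part of the smooth muscle markers in the changes of these genes was not tested.

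The 10 endothelial markers summed to between 1074 and 1447 CPM in the 8 libraries. None of the 10 was called by edgeR in the 3 comparisons with CTRL, where 5.10%, 0% and 0.285% of all genes were called. An unadjusted p under 0.05 was reached by 1, 0 and 1 of the 10, against 20.2%, 10.7% and 12.5% of all genes. The median over these markers was 0.11 on the log2 scale in AngII. Nos3 was 3.01% to 5.06% of that sum over the 8 libraries, with 4.90% and 4.09% in CTRL and 3.47% and 4.24% in AngII. Npr1 was 23.0% and 18.9% of the endothelial sum in CTRL and between 9.64% and 14.3% in the 6 libraries of infused mice. The smooth muscle sum was also below CTRL in those 6 libraries, and Npr1 was not set against it. Over the 8 libraries the log2 CPM of Npr1 had a Pearson r of 0.85 with Gucy1b1 and 0.17 with Nos3, given as a description. Which cells held the Npr1 RNA was not tested. Fibroblast markers summed to 2373 and 3901 CPM in CTRL and 12888 and 20952 CPM in AngII, and macrophage markers to 241 and 324 CPM in CTRL and 634 and 1061 CPM in AngII. Their part in the changes of the 10 genes was not tested.

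**Figure D4:**
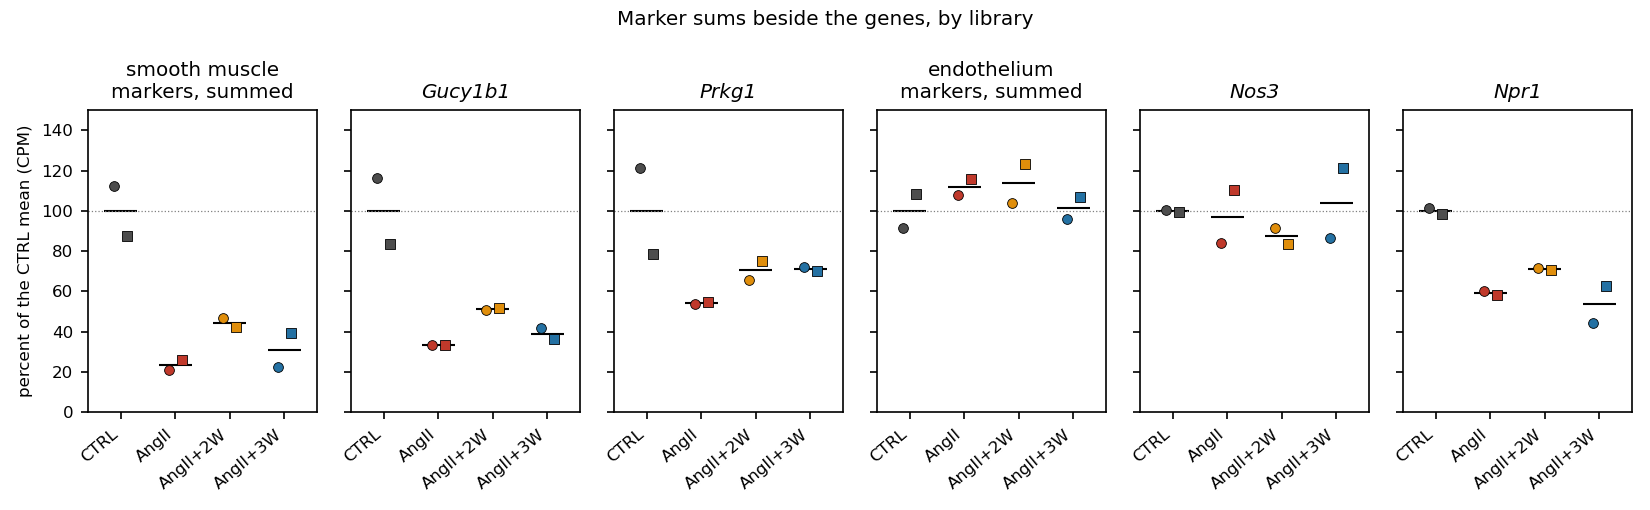
Summed markers of smooth muscle and endothelium beside Gucy1b1, Prkg1, Nos3 and Npr1, each in percent of the CTRL mean (vertical axis, from 0) by library, with circles for replicate 1, squares for replicate 2 and lines for the mean. The smooth muscle sum, Gucy1b1 and Prkg1 were below the lower CTRL library in all 6 libraries of infused mice, and so was Npr1, whereas the endothelial sum and Nos3 lay on both sides of the CTRL mean.

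The genes whose pattern over the 8 libraries was most like that of a member were sought among 15158 genes by the Pearson r of log2 CPM. For Gucy1b1 they included Pgm5 (r = 0.99), Xk (r = 0.98), Jam3 (r = 0.98) and Pacsin2 (r = 0.98). For Nos3 they were Ramp2 (r = 0.94), Anks6 (r = 0.94), Nab2 (r = 0.93), Grasp (r = 0.93) and Adamts10 (r = 0.93), and for Npr3 Slc6a13 (r = 0.97), Prdm11 (r = 0.97), Cux2 (r = 0.96), Slc2a12 (r = 0.95) and Olfr1284 (r = 0.95). With 8 libraries in 4 groups these values describe shared patterns of group means and of single libraries.

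Of 68 further genes of the pathway, 54 passed the filter on low counts, and 4 were called in AngII, 3 lower and 1 higher, none in AngII+2W and 1 in AngII+3W, where 5.10%, 0% and 0.285% of all genes were called. DESeq2 called 6, 3 and 7 of the 54, with 9.24%, 2.17% and 3.62% of all genes called, and limma-voom 4, 0 and 1, with 4.89%, 0% and 0.256%. An unadjusted p under 0.05 was reached by 12 of the 54 under AngII, against 20.2% of all genes. The count was again 12 at AngII+2W, against 10.7%, and 9 at AngII+3W, against 12.5%. Of the 12 at AngII+2W, 6 were kinase partners and substrates and 3 were genes of natriuretic peptides and their processing. The median log2 fold change of the 54 was -0.04, -0.02 and 0.01 in the 3 comparisons. The 12 partners and substrates of the kinase had medians of -0.87, -0.60 and -0.72, with 11, 12 and 10 of the 12 below 0. Over all genes tested the medians were -0.008, -0.0001 and 0.03. Smooth muscle markers were lower in the same groups, with the sums given above. Pln, the regulator of the sarcoplasmic reticulum calcium pump that is abundant in heart muscle, was at 194 and 47.8 CPM in CTRL, 34.7 and 14.6 CPM under AngII, 8.54 and 4.56 CPM at AngII+2W and 253 and 12.7 CPM at AngII+3W. It ranked the 8 libraries as the summed cardiac muscle markers did, and the calcium pump gene Atp2a2 was likewise high in AngII+3W replicate 1 (2292 CPM) and CTRL replicate 1 (2186 CPM), where those markers were highest. Neither gene, both chosen here after their values were seen, was called by edgeR against CTRL, and the part of either marker list in these medians was not tested. The 12 other phosphodiesterases that act on cGMP had medians of 0.13, -0.01 and 0.26, with none called. The 5 genes tested of cGMP export and cyclic nucleotide channels had medians of 0.23, 0.32 and 0.34, with none called, and of the 6 other guanylyl cyclases 2 were expressed enough to be tested and were not called.

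The 3 genes called lower in AngII all belonged to the kinase partners. Kcnmb1, the beta subunit of the calcium-activated potassium channel of smooth muscle, had 66.7 and 51.8 CPM in CTRL, 13.98 and 16.3 CPM under AngII, 42.7 and 29.4 CPM at AngII+2W and 13.7 and 19.8 CPM at AngII+3W. Its log2 fold change was -1.97 in AngII (SE 0.252, FDR = 0.0108), -0.72 in AngII+2W (FDR = 0.355) and -1.82 in AngII+3W (SE 0.250, FDR = 0.0455). Kcnmb1 was not called in AngII+3W with library totals alone (FDR = 0.0611), the 2 groups alone (FDR = 0.218) or the replicate block (FDR = 0.0743). The AngII call was lost without CTRL replicate 1 (FDR = 0.0771), AngII replicate 1 (FDR = 0.0656) or AngII replicate 2 (FDR = 0.103), and the AngII+3W call was kept only without AngII+3W replicate 2, with an FDR of 0.0581 to 0.250 in the other 7 fits.

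Ppp1r12a, the targeting subunit of myosin phosphatase, had 664 and 448 CPM in CTRL, 196 and 188 CPM under AngII, 269 and 288 CPM at AngII+2W and 251 and 301 CPM at AngII+3W. Its log2 fold change was -1.54 in AngII (SE 0.206, FDR = 0.0121), and -0.996 and -1.01 in the memory groups (FDR = 0.200 and 0.0948). In the memory groups it was called by DESeq2 in both, and by edgeR in AngII+3W without CTRL replicate 2 (FDR = 0.0464). Mrvi1, the kinase's anchor at the inositol trisphosphate receptor of the sarcoplasmic reticulum, had 224 and 184 CPM in CTRL, 69.8 and 83.1 CPM under AngII, 143 and 146 CPM at AngII+2W and 83.2 and 147 CPM at AngII+3W. Its log2 fold change was -1.42 in AngII (SE 0.260, FDR = 0.0269), -0.50 in AngII+2W (FDR = 0.549) and -0.82 in AngII+3W (FDR = 0.245). For both genes all 6 libraries of infused mice were below both CTRL libraries. The call of Ppp1r12a was lost without CTRL replicate 1, AngII replicate 1 or AngII replicate 2 (FDR = 0.0633, 0.0656 and 0.134), and that of Mrvi1 was kept only without an AngII+3W library (FDR up to 0.164 otherwise).

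The supply of nitric oxide held the one pathway gene called higher. Ddah1, an enzyme that degrades asymmetric dimethylarginine, the endogenous inhibitor of nitric oxide synthases, had 46 and 38 counts in CTRL, 480 and 304 under AngII, 32 and 57 at AngII+2W and 25 and 33 at AngII+3W. Only the 2 AngII libraries stood high, with a log2 fold change of 3.32 (SE 0.414, FDR = 0.00970) against CTRL. Ddah1 was lower in AngII+2W than in AngII by a log2 fold change of -3.15 (SE 0.411, FDR = 0.0476) and in AngII+3W by -3.69 (SE 0.428, FDR = 0.0206). The difference from AngII+2W was not called with library totals alone (FDR = 0.0568), limma-voom (FDR = 0.0653) or the replicate block (FDR = 0.0728). That from AngII+3W was not called with the 2 groups alone (FDR = 0.113). Against CTRL Ddah1 was not called in the memory groups, with log2 fold changes of 0.17 in AngII+2W (FDR = 0.932, 95% interval -0.82 to 1.15) and -0.37 in AngII+3W (FDR = 0.776, 95% interval -1.39 to 0.66). The FDR against CTRL in AngII was 0.0794 without CTRL replicate 1, 0.0599 without CTRL replicate 2 and 0.0543 without AngII replicate 2. The difference from AngII+2W was called in 2 of the 8 fits with 1 library left out, those without an AngII+3W library, and that from AngII+3W in 6, with an FDR of 0.0810 without AngII replicate 2 and 0.0552 without AngII+3W replicate 1. The fibroblast and macrophage marker sums given above were also highest in the 2 AngII libraries, and their part in the Ddah1 change was not tested.

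The other synthases were lowly expressed. Nos2, the inducible form, lay between 7.065 and 14.7 CPM, with a log2 fold change of 0.25 in AngII (SE 0.304, FDR = 0.718). Nos1, the neuronal form, lay between 2.61 and 5.46 CPM in 7 libraries and at 12.7 CPM in AngII+3W replicate 1, the library with skeletal muscle markers. The 18 tested genes of nitric oxide supply had medians of 0.03, 0.13 and 0.01. Prkg2, the second cGMP-dependent kinase, lay between 1.46 and 2.85 CPM and was not called.

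**Figure D5:**
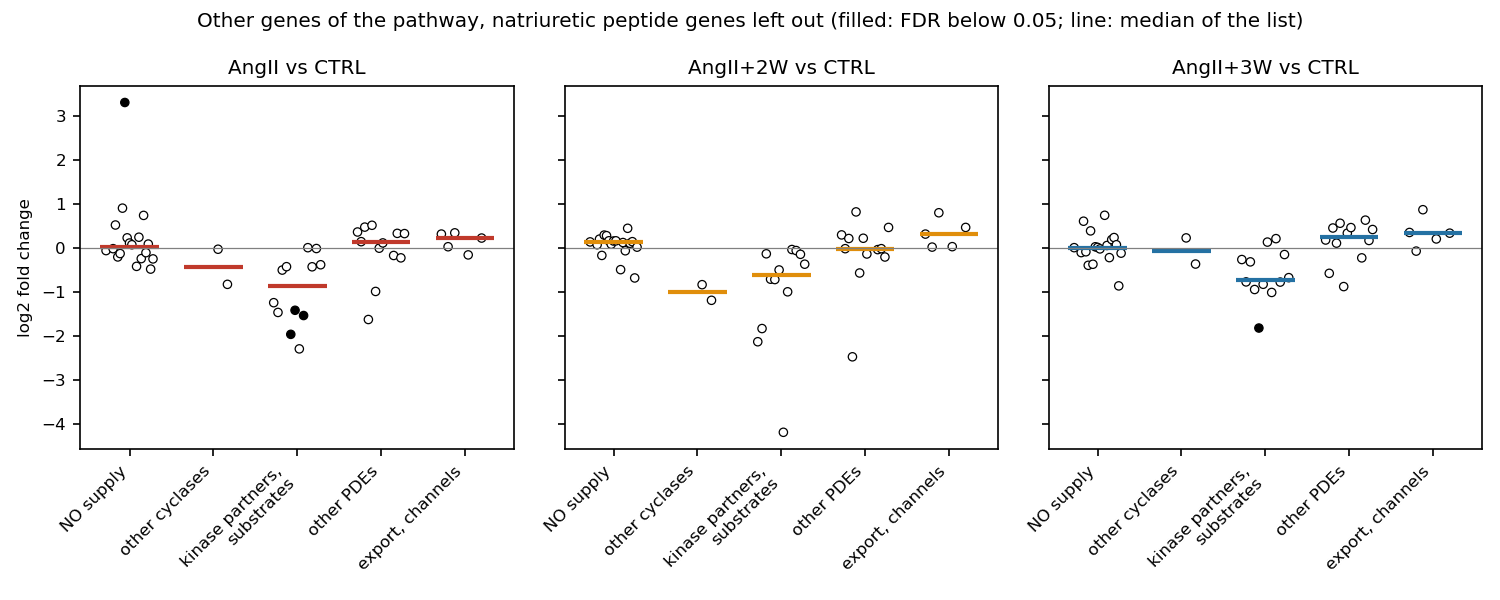
Log2 fold change (vertical axis) of the other pathway genes that were tested, by list, in the 3 comparisons with CTRL, with filled points where the edgeR FDR was under 0.05 and a coloured line at the median of each list. The genes of natriuretic peptides and of their processing are not drawn. Ddah1 is the filled point at 3.32 in AngII, and the filled points among the kinase partners are Kcnmb1, Ppp1r12a and Mrvi1 in AngII and Kcnmb1 in AngII+3W.

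The ligand genes of the natriuretic receptors varied widely between libraries, as did markers of heart muscle. Nppa, the gene of atrial natriuretic peptide, was at 104 and 65.3 CPM in CTRL, 13.4 and 69.0 CPM under AngII, 2.85 and 0.161 CPM at AngII+2W and 113 and 6.29 CPM at AngII+3W. Cardiac muscle markers summed to 5496 and 2422 CPM in CTRL, 1499 and 892 CPM under AngII, 253 and 86.0 CPM at AngII+2W and 6262 and 486 CPM at AngII+3W. Within AngII, Nppa was higher in replicate 2 and the cardiac sum in replicate 1. The part of the cardiac markers was not tested. Nppa was not called in AngII (FDR = 0.703), AngII+2W (FDR = 0.301) or AngII+3W (FDR = 0.902). In AngII+2W it was called by DESeq2, and by edgeR without AngII+3W replicate 1 or 2 (FDR = 0.0438 and 0.0416). Nppb had 12 and 20 counts in CTRL, 0 to 6 in AngII and AngII+3W, and 0 in both AngII+2W libraries, and Nppc had 4 counts over the 8 libraries and was not tested.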

How the data were processed

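RNA-seq libraries of aortic tissue were made by the authors from ribosome-depleted RNA with a KAPA RNA HyperPrep kit and sequenced as paired ends on 1 lane. The deposited table holds expected counts per gene, which the authors estimated with Salmon against mouse Ensembl transcripts (GRCm38.p6) and summed to genes; the values are whole numbers without normalization. Groups and replicate numbers came from the labels. The members and all gene lists were chosen with earlier results of these data known.

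Genes were kept with filterByExpr and fitted with edgeR 4.0.16 (R 4.3.3), using TMM scaling, quasi-likelihood tests, all 8 libraries and 1 coefficient per group. P-values were adjusted with Benjamini-Hochberg over 17182 genes, and 6 comparisons were made. Since each library is a pool of 2 mice, p-values measure the spread between pools. Log2 CPM used a prior count of 2. The 95% intervals use edgeR's moderated spread. Where 1 library was left in a group, it was taken to vary like the other groups. Scripts were tested on simulated data. Alternatives were DESeq2 1.42.0, limma-voom (limma 3.58.1), other scalings and filters, the 2 groups alone, a replicate term and leaving out each library in turn. Named genes were the 10 members, Nos1, Nos2, Nppa, Nppb, Nppc and Prkg2, further pathway genes with an FDR under 0.05 against CTRL, and the 5 genes most alike to Gucy1b1, Nos3 and Npr3 at a mean of at least 1 CPM, of which 1 is not reported here. Gene positions and exon lengths were from GENCODE on GRCm38. A search for stretches of at least 200 bases with 90% identity found 1 member, Nos3, that shares sequence with another gene. Counts of Salmon are split by estimation between such genes. The deposited table was the only source of expression values.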

Additional observations from a re-analysis of the deposited data

How the results depend on the processing

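The members held at least 278 counts in every library, so that the 2 libraries per group, more than depth, set the precision. In 7 alternatives with all libraries or the 2 groups alone, no log2 fold change changed its sign among those rerun. These were those of the members, and of Ddah1, Kcnmb1, Mrvi1, Ppp1r12a and Nppa against CTRL. Ddah1 against AngII and Nos2 in AngII were also rerun. Between AngII+3W and AngII+2W only the members with an unadjusted p under 0.05 were rerun, which were Npr3, Npr1, Gucy1a1 and Gucy1b1. For AngII against CTRL the count of members called, 5, was 3 with DESeq2 size factors, library totals alone, limma-voom and the replicate block, and 0 to 6 with 1 library left out. For AngII+2W against CTRL the count of 0 became 2 with DESeq2 and 0 to 1 with a library left out, where Gucy1b1 was called without either AngII+3W library. For AngII+3W against CTRL the count of 1 became 0 with library totals alone, the 2 groups alone and the replicate block, 3 when every gene with at least 1 count was kept, 4 with DESeq2, and 0 to 2 with a library left out. For AngII+2W against AngII the count of 0 became 1 with DESeq2 and 2 with the 2 groups alone, and for AngII+3W against AngII 1 with DESeq2. Over all genes tested, 877 were called in AngII (622 with library totals alone to 1588 with DESeq2, and 870 with the replicate block), 0 in AngII+2W (373 with DESeq2) and 49 in AngII+3W (0 with the 2 groups alone, 1 with library totals alone, 4 with the replicate block, 200 when every gene with at least 1 count was kept, 585 with DESeq2), 28 in AngII+2W against AngII (15 to 884), 276 in AngII+3W against AngII (0 to 968) and 0 in AngII+3W against AngII+2W (221 with DESeq2). The causes were not tested.

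Of these log2 fold changes, those whose sign changed were not called, and changed it only when 1 library was left out. The ranges were -0.25 to 0.14 for Nos3 and -0.18 to 0.86 for Nos2 in AngII against CTRL, -0.43 to 0.59 for Ddah1 in AngII+2W against CTRL, and for AngII+3W against CTRL -0.47 to 0.0942 for Npr2, -0.26 to 0.27 for Nos3, -0.0207 to 0.18 for Gucy1a2 and -3.76 to 0.37 for Nppa. For AngII+2W against AngII they were -0.34 to 0.0655 for Nos3 and -0.0370 to 0.0684 for Pde1a. For AngII+3W against AngII they were -0.46 to 0.0907 for Npr1, -0.0312 to 0.54 for Npr2, -0.21 to 0.33 for Nos3 and -0.25 to 0.28 for Pde5a.

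Replicates with the same number came from different mice, and the differences between replicate 2 and replicate 1 correlated between groups over 17182 genes with r between -0.04 and 0.25, so that the numbers were not taken as pairs. With the replicate block, Npr1 (FDR = 0.0581) and Prkg1 (FDR = 0.0618) were no longer called in AngII, nor was Gucy1b1 in AngII+3W (FDR = 0.0709), and no other member's call changed. Kcnmb1 in AngII+3W (FDR = 0.0743) and Ddah1 in AngII+2W against AngII (FDR = 0.0728) were not called with it either.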
